A study of Mus musculus with 2 samples.

Results

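The miRNAs described here are the 42 mouse miRNAs with registry numbers from 1000 to 5999 that the scanner software called detected on at least 1 of 2 arrays of bone marrow (BM) LSK cells. They were 42 of 213 detected miRNAs, of 348 miRNAs of this number range on the array and of 1881 mouse miRNAs in all. The detection flag, which required a probe signal above 3 times its error, is itself a measured value, so detection and the count by array are descriptions of how the miRNAs were chosen. LSK cells are Lin-, c-Kit+ and Sca-1+ cells, the BM fraction that holds stem cells and early progenitors. They were sorted from C57BL/6 mice that carry Scl/tTA and a BCR/ABL (BA) transgene, the fusion tyrosine kinase of chronic myeloid leukemia. Doxycycline at 20 mg/L in the drinking water holds the transgene off. Week-3 cells (3W_LSK) were taken 3 weeks after doxycycline was withdrawn. Week-0 cells (0W_LSK) came from mice that the authors describe as fed on doxycycline. Both groups carry the same transgenes, and BA is driven only in cells where the Scl element is active, so not every LSK needs to express it. Cells of 3 mice were pooled for 1 array per group. There is thus no replicate check and no test, and BA, withdrawal, time and the pool of mice cannot be told apart. The sources used here give no age for the mice.

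miRNAs are short RNAs cut from hairpin precursors by Drosha with its partner Dgcr8 and then by Dicer. Loaded on an Argonaute protein, they repress mRNAs that pair with the seed, bases 2 to 8 from the 5′ end. The suffixes -5p and -3p name the arms of 1 hairpin. Registry numbers follow the order of submission, so the miRNAs numbered 1000 to 5999 entered the registry after the classical families such as let-7 and miR-125, which are the ones best known from stem cells. Some lie outside the usual route. miR-1224 is a mirtron, a short intron whose hairpin is released by splicing rather than by Drosha.

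Mature sequences from RefSeq were matched for 35 of the 42 miRNAs, with lengths of 18 to 26 bases. They are shown for those on which the results turn, with the seed in capitals. The first 4 are the brightest with a sequence that differed by less than 1.5-fold between the arrays.
miR-3963: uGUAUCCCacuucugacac
miR-5100: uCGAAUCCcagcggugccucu
miR-3473b: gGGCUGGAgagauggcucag
miR-5126: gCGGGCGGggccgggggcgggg
The next 6 had a higher signal at week-3, past 1.5-fold after scaling, and a detection call on each array.
miR-5622-3p: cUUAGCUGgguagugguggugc
miR-1224-5p: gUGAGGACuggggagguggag
miR-3473g: cAAAAGUGaggcuggggaga
miR-3098-5p: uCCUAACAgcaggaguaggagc
miR-2137: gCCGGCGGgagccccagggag
miR-3968: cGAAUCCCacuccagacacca
The next 6 were detected at week-3 only.
miR-1306-3p: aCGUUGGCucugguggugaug
miR-1897-3p: uCAACUCGuucuguccggugag
miR-1906: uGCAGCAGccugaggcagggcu
miR-3081-5p: gACUGGAGcuuggagcggugagc
miR-1892: aUUUGGGGacgggagggaggau
miR-3473e: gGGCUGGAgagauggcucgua
The last pair was lower at week-3.
miR-5119: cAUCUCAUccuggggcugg
miR-1839-5p: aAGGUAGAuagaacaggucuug
The 35 sequences held 34 different seeds. Only miR-3473b and miR-3473e shared one, GGCUGGA. The seeds of miR-3968 and miR-5100 are the same letters moved by 1 base, since both RNAs hold CGAAUCCCA near their 5′ end. This stretch was found in 2 of 1679 mature mouse miRNAs, and the shorter AUCCCA, which it contains, in 7, of which the detected ones were miR-3963, miR-3968 and miR-5100. These stretches were picked after the sequences were seen.

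On the whole arrays, 193 miRNAs were detected at week-3 and 178 at week-0. Of 56430 miRNA spots per array, 1600 at week-3 and 1941 at week-0 were marked as outliers and left out, and 0 were saturated on either array. The sorted fraction was checked against marker miRNAs. All 3 blood cell markers were detected on both arrays. Of the 6 markers of stem and progenitor cells, 5 were detected at week-3 and 6 at week-0, the stem and progenitor list with a summed signal of 332 at week-3 and 1278 at week-0. Of the stromal or endothelial markers 0 of 3 were detected, and of those of other tissues 0 of 5. The erythroid marker miR-451a was detected at week-0 only, with a list sum of 8.0 at week-3 and 50.1 at week-0. Of the lymphoid markers 1 of 2 was detected, with a list sum of 71 at week-3 and 123 at week-0. The part of these shifts in the results below was not tested. In pooled cells, fewer cells of a type and less RNA per cell cannot be told apart.

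The 42 miRNAs held 28.8% (SE 0.12) of the summed signal of detected miRNAs at week-3 and 26.5% (SE 0.095) at week-0. The SE is over replicate spots within an array and covers technical error only. Probes differ in brightness, so a share of signal is not a share of molecules. miR-3963 alone held 12.2% (SE 0.10) at week-3 and 12.4% (SE 0.095) at week-0, which was 42.3% of the members' signal at week-3 and 46.7% at week-0. The other 41 together held 16.6% at week-3 and 14.2% at week-0. With miR-3963 taken out of the total as well, they held 18.9% at week-3 and 16.1% at week-0. The gain in share therefore lay outside miR-3963. Its direction depends on the summary of the spots: with the total per miRNA that the scanner software writes, the 42 held 32.01% at week-3 and 34.6% at week-0.

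As a net sum, the gain in share also lay mostly outside the 5 brightest members. These, miR-3963, miR-5100, miR-3473b, miR-1224-5p and miR-5126, held 21.6% at week-3 and 21.1% at week-0. That sum hides opposite moves. miR-1224-5p had a signal of 1538 at week-3 and 762 at week-0, and miR-5100 had 1760 at week-3 and 2144 at week-0. The other 37 members held 7.14% at week-3 and 5.44% at week-0, and their summed signal was 1.35 times as high at week-3. The 44 detected miRNAs numbered 6000 or higher held 32.3% at week-3 and 16.8% at week-0, and the 127 numbered below 1000, with let-7, held 38.9% at week-3 and 56.6% at week-0. The share of the miRNAs numbered 1000 to 5999 thus moved by 2.25 points, against 15.5 points for the higher numbers, while that of the lower ones dropped by 17.7 points. A share falls or rises with what the other miRNAs do, and the summed signal of all detected miRNAs was 61908 at week-3 and 59958 at week-0.

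**Figure D1:**
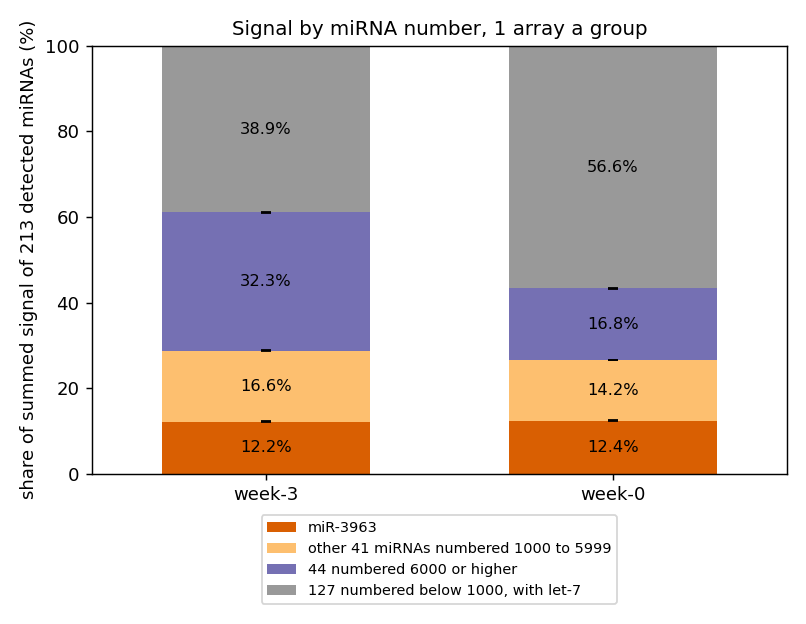
Stacked bars give the share (%) of the summed unscaled signal of 213 detected miRNAs on the week-3 and the week-0 array (1 array each), split into miR-3963, the other 41 miRNAs numbered 1000 to 5999, the 44 numbered 6000 or higher and the 127 numbered below 1000. Error bars are SE over spots; the segment of miR-3963 is 12.2% at week-3 and 12.4% at week-0, while the segment numbered 6000 or higher is 32.3% at week-3 and 16.8% at week-0.

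miR-3963 was the brightest of the 42, with a signal of 7539 (SE 68.2) at week-3 and 7418 (SE 64.0) at week-0, a ratio of 1.02. It ranked 2 of all mouse miRNAs on both arrays. Quantile scaling gives equal values to equal ranks, so its scaled log2 difference of 0.00 is set by that rank. Under other settings the difference ran from -0.62, past 0.67-fold, with the brightest probe of each miRNA to 0.50 with the scanner's total. RefSeq places miR-3963 at chr3:151023839-151023857 on the minus strand of GRCm38.p6, outside the span of any other listed gene. miR-5100, within the span of Mief2, had a signal of 1760 (SE 23.1) at week-3 and 2144 (SE 22) at week-0. It was the only one of the 8 brightest members with a lower signal at week-3, at a ratio of 0.821 unscaled and a log2 difference of -0.50 (SE 0.02) after scaling, short of the 0.67-fold threshold. The SE given with a scaled difference, here and below, comes from the unscaled signals and leaves out the scaling.

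miR-3473b, at chr10:41670774-41670793 within the span of Ccdc162, had 1628 (SE 7.21) at week-3 and 1521 (SE 11.3) at week-0, a ratio of 1.07. miR-5126, within Dner, had 924 (SE 6.24) at week-3 and 793 (SE 6.42) at week-0, a ratio of 1.16 and a scaled log2 difference of 0.56. miR-3960 had 393 (SE 4.81) at week-3 and 372 (SE 4.59) at week-0. In mouse, miR-3960 and miR-2861 form a cluster known from osteoblast differentiation, and miR-2861 had 87.9 (SE 1.83) at week-3 and 89.1 (SE 1.82) at week-0. After scaling these 4 members were within 1.5-fold, although miR-5126 was just past it, at 0.59, with the brightest probe of each miRNA.

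Of the 42 miRNAs, 16 (38.1%) were at least 1.5-fold higher at week-3 after scaling and 2 (4.76%) were at or below 0.67-fold. Over all 213 detected miRNAs these shares were 25.8% higher and 28.6% lower. The median log2 difference of the 42 was 0.49, which corresponds to 1.40-fold, beside a median of 0.00 over the 213. Because a miRNA detected on 1 array was let in by the array where it was bright, the count of higher members rests in part on the selection. Of the 33 with a detection call on each array, 9 were higher and 1 lower, beside 19% higher and 26.6% lower among all 158 such miRNAs. Their median log2 difference was 0.41, beside -0.04 for the 158.

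Scaling moved 40 of the 42 values upwards. Without it the median was 0.35 for the 42 and 0.19 for the 33, beside -0.18 for the 158, and 12 members were higher and 2 lower, beside 20.2% higher and 35.7% lower over the 213. The sign was positive in 35 of 42 members after scaling and in 31 without it, beside 104 and 93 of the 213. A summary that adds an offset of 50 to the background-corrected signals, which draws the ratios of dim miRNAs toward 1, left 5 higher and 0 lower, beside 5.16% higher and 4.69% lower over the 213. With the scanner's total per miRNA 18 were higher and 7 lower, beside 33.3% higher and 31.9% lower over the 213. By the values in the authors' own table, 18 were higher and 1 lower, beside 24.4% higher and 24.9% lower over the 213.

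**Figure D2:**
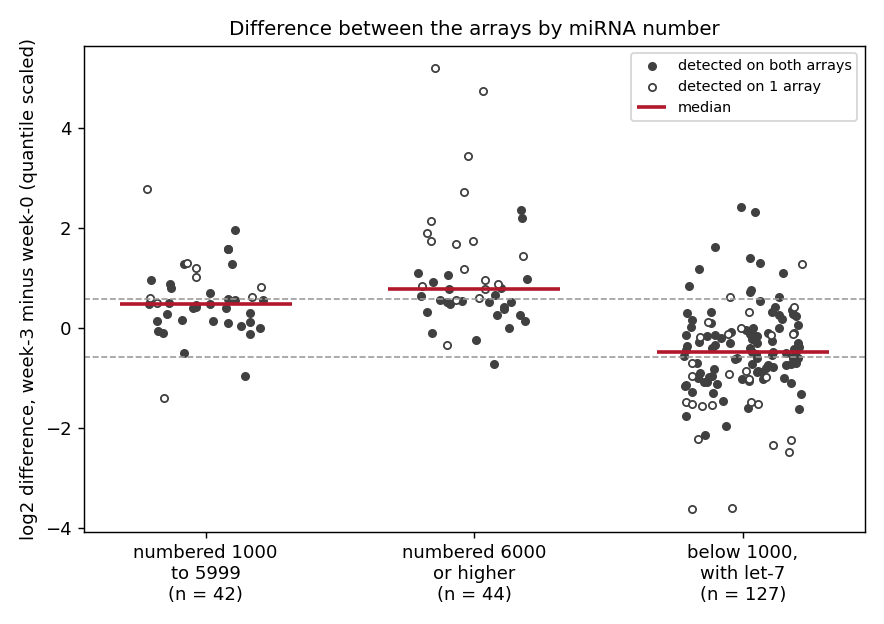
Each point is a detected miRNA, with the scaled log2 difference of week-3 minus week-0 on the vertical axis, for miRNAs numbered 1000 to 5999, 6000 or higher, and below 1000 with let-7; open points were detected on 1 array and dashed lines mark 1.5-fold and 0.67-fold. The median (red line) is 0.49 for the 42 miRNAs numbered 1000 to 5999, 0.78 for the 44 with higher numbers and -0.48 for the 127 with lower numbers.

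The miRNAs numbered 1000 to 5999 lay between the other number classes. Of the 44 numbered 6000 or higher, 26 were higher and 1 lower, with a median log2 difference of 0.78. Of the 127 numbered below 1000, 13 were higher and 58 lower, with a median of -0.48. Within the range, the 12 members numbered in the 1000s had a median of 0.50, the 20 in the 3000s 0.44 and the 8 in the 5000s 0.52, so these medians were close to each other. The array holds 0 miRNAs numbered in the 4000s, and 2 of the 5 in the 2000s were detected.

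Among miRNAs detected on both arrays, miR-5622-3p had the largest difference of these 33. Its signal was 334 (SE 5.21) at week-3 and 109 (SE 1.5) at week-0, 3.05 times as high unscaled, with a scaled log2 difference of 1.97 (SE 0.03). It lies at chr2:152865105-152865126 within the span of Tpx2, which encodes a spindle assembly factor. miR-1949 followed, with 760 (SE 9.68) at week-3 and 308 (SE 4.11) at week-0, a scaled log2 difference of 1.59 (SE 0.03). miR-5099 had 89.8 (SE 2.21) at week-3 and 32.1 (SE 1.25) at week-0, a difference of 1.58 (SE 0.07). For each of the 3, the signal at week-3 was more than double that at week-0.

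The mirtron miR-1224-5p, at chr16:20604452-20604472 within Vwa5b2, had 1538 (SE 15.1) at week-3 and 762 (SE 7.38) at week-0, with a scaled log2 difference of 1.28 (SE 0.02). It ranked 7 on the week-3 array and 21 on the week-0 array. miR-3470a had 219 (SE 1.79) at week-3 and 116 (SE 1.87) at week-0, a difference of 1.27 (SE 0.03). miR-5622-3p, miR-1949, miR-1224-5p and miR-3470a were the 4 higher members that stayed past 1.5-fold under each of 10 other ways of summarising or scaling the signals. Among these 10, a floor of 1 under the scaled signals could not move any member.

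Smaller differences depended more on the processing. miR-3098-5p had 80.5 (SE 1.37) at week-3 and 48.4 (SE 0.87) at week-0, a scaled log2 difference of 0.89 (SE 0.04). miR-3473g had 395 (SE 7.29) at week-3 and 268 (SE 4.04) at week-0, and its difference was 0.97 (SE 0.03) scaled but 0.56, short of 1.5-fold, unscaled. miR-2137 had 74.7 (SE 2.09) at week-3 and 45.2 (SE 1.37) at week-0, a difference of 0.80 (SE 0.06) that became -0.54 with the total per miRNA that the scanner software writes. miR-3968, within the span of Trim80, had 483 (SE 6.52) at week-3 and 406 (SE 2.83) at week-0. Its difference was 0.70 (SE 0.02) scaled, 0.25 unscaled and -4.25 with the scanner's total. It was past 1.5-fold only in settings with quantile scaling, which moved it by 0.45, the most among the 42.

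**Figure D3:**
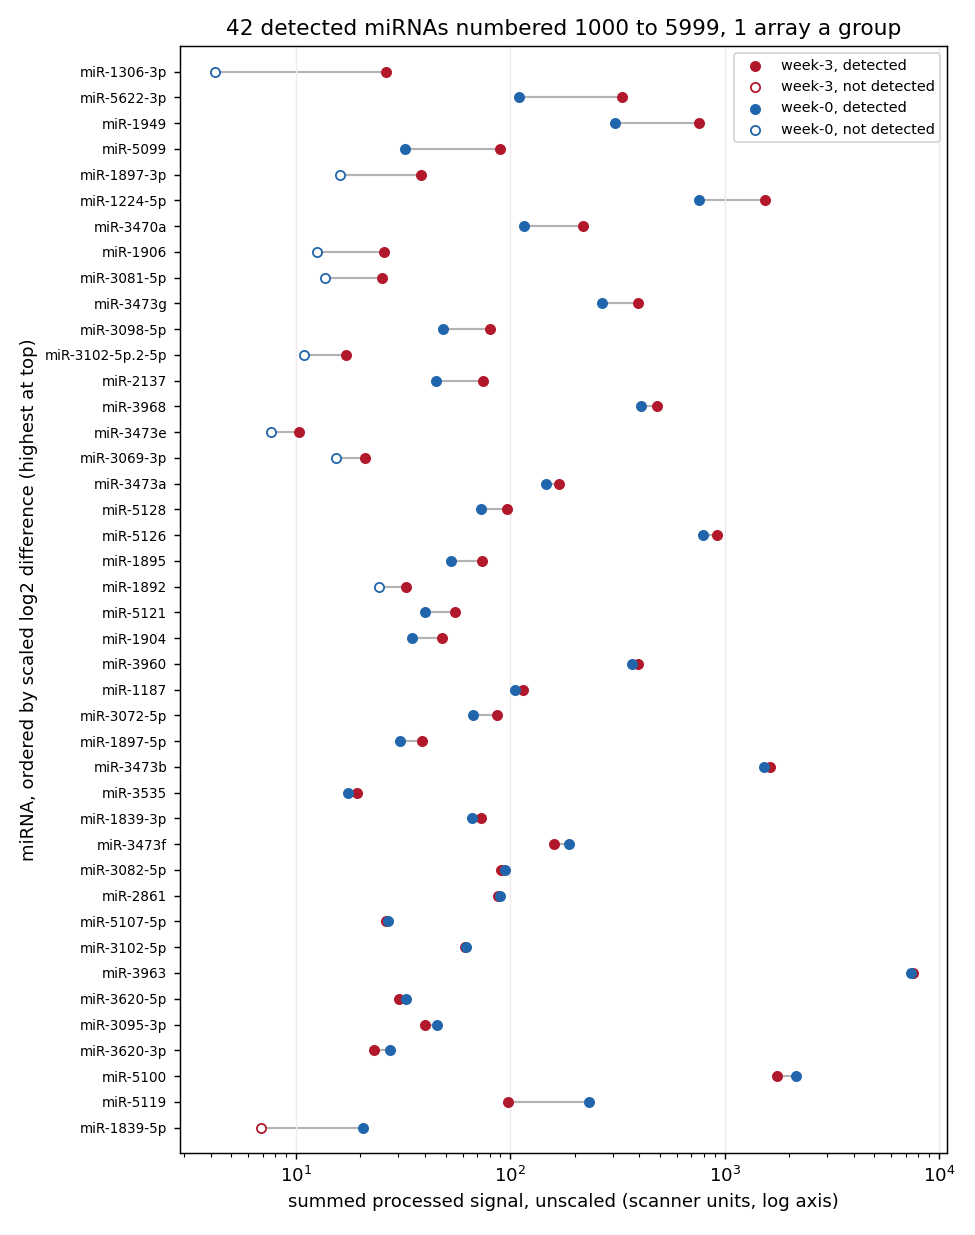
Each row is 1 of the 42 miRNAs, ordered by scaled log2 difference, with its unscaled summed signal on a log axis at week-3 (red) and at week-0 (blue); open points were not detected on that array and there is 1 array a group. miR-1306-3p at the top has 26.4 at week-3 and 4.18 at week-0, miR-3963 has near-equal points of 7539 at week-3 and 7418 at week-0, and miR-1839-5p at the bottom has 6.90 at week-3 and 20.6 at week-0.

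Only miR-5119 and miR-1839-5p were at or below 0.67-fold. miR-5119, at chr11:98262638-98262656 within Cdk12, a kinase of RNA polymerase II, had 97.1 (SE 2.28) at week-3 and 233 (SE 3.57) at week-0. Its log2 difference was -0.96 (SE 0.04) scaled and -1.27 unscaled, and it was at or below 0.67-fold in 9 of 10 other settings, the exception being the offset summary with -0.42. miR-1839-5p was the 1 member detected at week-0 only, with 6.90 (SE 1.39) at week-3 and 20.6 (SE 1.95) at week-0, a difference of -1.39 (SE 0.32). It fell short of 0.67-fold in the authors' table and with the offset. Its opposite arm, miR-1839-3p, had 73.3 (SE 1.62) at week-3 and 65.9 (SE 1.25) at week-0, a difference of 0.16 (SE 0.04) that became -1.01 with the scanner's total. The 5p arm was near the detection limit on its better array, where its highest probe stood at 3.61 times its error.

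Few other members were lower after scaling, and these were short of the threshold there, although with the scanner's total miR-3620-3p, at -3.12, and miR-3620-5p, at -1.07, passed it. miR-3620-3p had 23.1 (SE 1.41) at week-3 and 27.4 (SE 1.88) at week-0, and its 5p arm had 30.1 (SE 1.40) at week-3 and 32.6 (SE 1.28) at week-0, so after scaling both arms differed by no more than 1.96 times their SE over spots. They lie on chromosome X within Apex2, a DNA repair endonuclease gene, and the 5p arm also within Alas2, the gene of erythroid heme synthesis. miR-3095-3p, within Lpar1, had 40.2 (SE 1.21) at week-3 and 45.4 (SE 1.56) at week-0. miR-3102-5p had 61.7 (SE 1.88) at week-3 and 62.0 (SE 1.69) at week-0. miR-5107-5p had 26.3 (SE 1.09) at week-3 and 26.9 (SE 1.0) at week-0. The last pair had ratios just below 1 unscaled and differences just above 0 scaled, of 0.04 and 0.10, so their direction depends on the scaling.

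More of these miRNAs were detected at week-3 than at week-0. Of the 42 miRNAs, 41 were detected at week-3 and 34 at week-0, with 33 on both arrays, 8 at week-3 only and 1 at week-0 only. Over all 213 detected miRNAs the order was the same, with 193 at week-3 and 178 at week-0. Of these 213, 158 were on both arrays, 35 at week-3 only and 20 at week-0 only. The 8 week-3-only miRNAs were dim, with signals of 10.4 to 38.3 (median 25.4) at week-3 and 4.18 to 24.5 (median 13.1) at week-0, and 7 of them were past 1.5-fold, beside 71.4% of all 35 miRNAs detected at week-3 only. By comparison, the 33 detected on both arrays had medians of 90.7 at week-3 and 89.1 at week-0.

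miR-1306-3p had 26.4 (SE 0.90) at week-3 and 4.18 (SE 1.18) at week-0, a log2 difference of 2.77 (SE 0.41) with its highest week-0 probe at 0.48 times its error. Against the lowest detected value it was 0.73, below the 1.17 of miR-1897-3p, and the values the authors deposited gave 0.91 for it, below 1.21 for miR-1897-3p. It lies at chr16:18284248-18284268 within the span of Dgcr8, whose protein is the partner of Drosha in cutting miRNA hairpins. miR-1897-3p, within the long noncoding RNA gene Sox2ot, had 38.3 (SE 1.23) at week-3 and 16 (SE 1.21) at week-0, a difference of 1.31 (SE 0.12). Its opposite arm, miR-1897-5p, was detected on both arrays with 38.5 (SE 1.59) at week-3 and 30.6 (SE 0.93) at week-0, a smaller difference of 0.39 (SE 0.07). After scaling, the arms of this hairpin thus had the same direction but only the 3p arm passed 1.5-fold. Other settings changed this. The 5p arm was 0.60, past 1.5-fold, when scaled to the 75th percentile of miRNAs on both arrays, and -0.03 with the scanner's total. With the offset the 3p arm was 0.23. miR-1906, which has 2 loci, 1 of them within Meg3, an imprinted long noncoding RNA gene, had 25.7 (SE 1.24) at week-3 and 12.5 (SE 1.05) at week-0. miR-3081-5p, within Boc, had 25.1 (SE 1.12) at week-3 and 13.6 (SE 1.23) at week-0. miR-1892, within Sptssa, had 32.7 (SE 1.29) at week-3 and 24.5 (SE 1.38) at week-0, short of 1.5-fold.

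These differences are estimates and not bounds, since an undetected signal is close to noise. With the week-0 value raised to the lowest detected scaled value of that array where it was below it, the 8 differences ran from -0.60 to 1.17, and 4 stayed past 1.5-fold. The lowest detected scaled log2 value was 4.07 at week-0, that of miR-3535, and 2.71 at week-3, that of a miRNA numbered above the range. The step therefore weighs unevenly on the arrays.

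The detection limit was close for several members. At week-3 the weakest detected one, miR-3102-5p.2-5p, had a probe total of 3.11 times its error, and the strongest undetected one, miR-5113, had 2.90. At week-0 these were 3.02 for miR-3620-3p and 2.79 for miR-1892. On each array 5 detected members lay below 4 times the error. The 306 undetected miRNAs of the range had median summed signals of -3.28 at week-3 and -3.62 at week-0, with maxima of 16.6 at week-3 and 19.8 at week-0. Negative control spots had a median of 4.56 at week-3 and 4.58 at week-0.

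Every member was measured by 2 to 4 probes that bind nested stretches of 1 RNA. These share a target and are not replicates of the condition, but they show whether a difference depends on a single probe. Over the 33 miRNAs detected on both arrays, 69 probes had a positive mean on both, and their unscaled ratio of week-3 to week-0 had a median of 1.12, with the middle 50% from 0.955 to 1.46. Of these, 48 lay above 1, 15 were at least 1.5 and 3 were at or below 0.67. Over the probes of all 158 miRNAs, 328 in number, 133 lay above 1, 52 were at least 1.5 and 114 at or below 0.67. The median was 0.884 over 328 probes of all 158 miRNAs, 1.28 over the 51 of miRNAs numbered 6000 or higher and 0.639 over the 208 of those numbered below 1000. The 3 member probes at or below 0.67 all belonged to miR-5119, with ratios of 0.394 to 0.446.

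Probes of 1 miRNA gave close ratios where at least 2 of them stood clear of their error. In the 22 miRNAs with at least 2 probes past 3 times their error on both arrays, the highest and lowest log2 ratio differed by a median of 0.07 and by at most 0.24, in miR-3473f. In 20 of the 22 all such probes lay on 1 side of 1, the exceptions being miR-3102-5p, with 0.952 and 1.05, and miR-2861, with 0.917 and 1.08. The probes of miR-3963 gave 1.02 and 1.02, those of miR-1949 2.45 and 2.52, those of miR-5622-3p 2.98 and 3.14, and those of miR-1224-5p 1.98 and 2.22. The differences between miRNAs in this set were thus wider than those between probes of 1 miRNA. Members detected on both arrays but with fewer such probes were left out. Among these, the probes of miR-5128 gave 2.35 (SE 0.29) and 1.22 (SE 0.04), and those of miR-2137 gave 1.67 and 1.65.

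**Figure D4:**
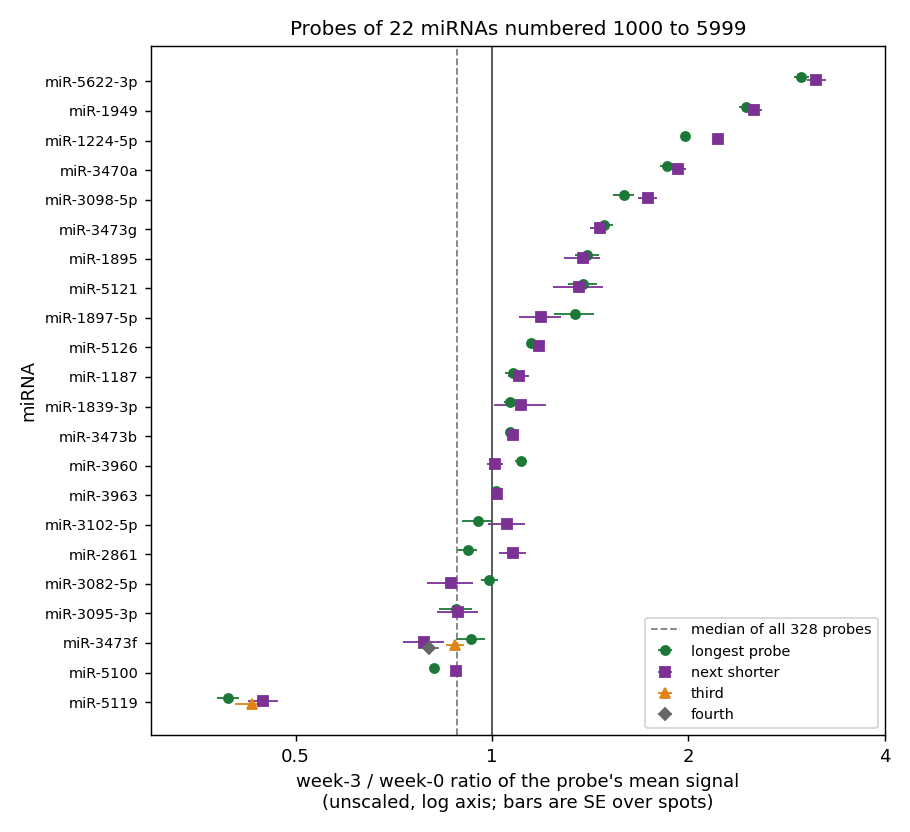
Each row is 1 of the 22 miRNAs with at least 2 probes past 3 times their error on both arrays, and each point is a probe's unscaled week-3 to week-0 signal ratio on a log axis with its SE over spots; the solid line marks 1 and the dashed line the median of all 328 probes, 0.884. Probes of a miRNA lie close together, from 2.98 and 3.14 for miR-5622-3p at the top to between 0.394 and 0.446 for miR-5119 at the bottom.

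The signal was not spread evenly over the probes. In 10 of the 33 both-array members the longest probe gave at least 75% of the signal on both arrays. In miR-3968 it gave 96.1% at week-3 and 96.8% at week-0, although the next probe is only 1 base shorter, with 18.8 (SE 1.08) at week-3 and 13.1 (SE 0.91) at week-0. In miR-5099 the shorter probe averaged 5.19 at week-3 and -1.53 at week-0, so its difference rests on the longest probe, with 84.6 at week-3 and 33.6 at week-0. In miR-3963 the longest probe gave 76.4% at week-3 and 76.5% at week-0. The longest probe's share moved by a median of 1.63 points between the arrays and by at most 10.72 points, in the dim miR-3535.

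miR-3473 had 5 numbered relatives among the members, which differ in sequence. miR-3473a had 168 (SE 2.10) at week-3 and 147 (SE 2.27) at week-0, a log2 difference of 0.57 scaled and 0.19 unscaled. For miR-3473a it was 0.60, past 1.5-fold, with the median of spots and -0.19 with the scanner's total. miR-3473f had 160 (SE 2.44) at week-3 and 189 (SE 4.04) at week-0, a difference of 0.15 scaled and -0.24 unscaled. miR-3473e was seen at week-3 only, with 10.4 (SE 1.0) at week-3 and 7.61 (SE 1.13) at week-0. Its 15-base probe had negative means on both arrays, -2.98 at week-3 and -3.76 at week-0. The longest probes of miR-3473b and miR-3473e share 13 letters in a row and those of miR-3473a and miR-3473b 14, so that binding of 1 RNA to the probe of another was possible and was not tested. GGAGAGA occurred in 5 members, miR-3095-3p and miR-3473a, b, e and f, and in 10 of all 1679 mature miRNAs.

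As background, the B2 short interspersed repeat of the mouse genome opens with much the same letters as miR-3473b. Its whole mature sequence occurred, on either strand, in 32 of 32851 promoter windows of 300 bases, and that of miR-3473a in 9. Of the 35 members with a sequence, 30 occurred in no window. Of the 40 detected miRNAs numbered 6000 or higher with a sequence, 40 occurred in none. Among the 112 numbered below 1000, with let-7, 106 occurred in none and 6 in at least 1. A match of letters says nothing of transcription there.

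The probes of the 42 miRNAs were short and rich in C. Each longest probe with a known target paired over its whole binding stretch with the 3′ end of the mature RNA, over 10 to 19 bases, so that the arrays read the 3′ part of these RNAs. For miR-1224-5p and miR-5126 this was only the last 11 bases. The median binding length was 15 bases (range 10 to 19), and 28 of 42 had 15 or fewer. The median was 16 for the 306 undetected miRNAs of the same range, 14 for the detected ones numbered 6000 or higher and 18 for those numbered below 1000.

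C made up a median of 43.8% of these bases, against 28.6% in the undetected miRNAs of the range, 53.3% in the detected ones with higher numbers and 26.3% in those with lower numbers. At least 50% C was found in 15 of the 42 (35.7%) and in 24 of the 306 (7.84%). The median G plus C content was 64.3% in the 42, 56.3% in the undetected ones, 66.7% in the higher numbers and 47.1% in the lower ones. The extremes were miR-3960 and miR-5126, with 75% and 81.8% C, and at the other end miR-1839-3p, with 5.26%. miR-3963, the brightest, had only 6.25% C. Since detection chose the members, these are descriptions and no test was made.

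**Figure D5:**
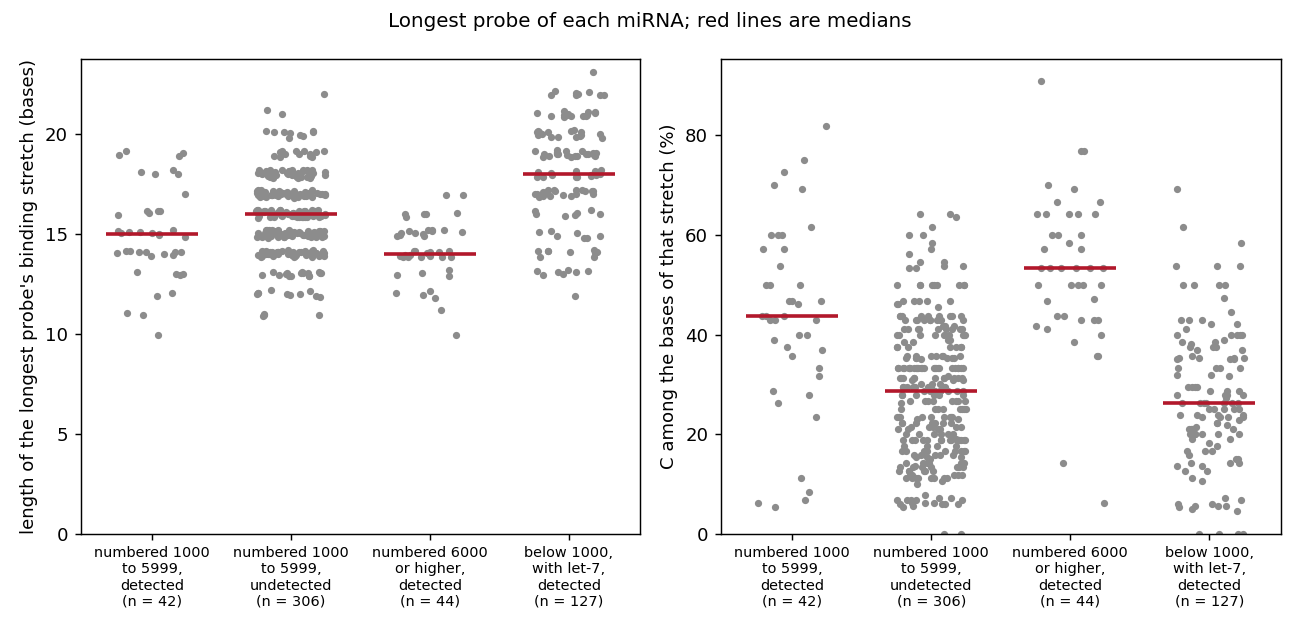
Points are the longest probe of each miRNA: the length of its binding stretch in bases (left) and the share of C in it in % (right), for the 42 detected and the 306 undetected miRNAs numbered 1000 to 5999, and the detected ones numbered 6000 or higher (44) or below 1000 (127); points are spread sideways, and vertically in the left panel, to be seen. Red lines are medians: 15, 16, 14 and 18 bases, and 43.8%, 28.6%, 53.3% and 26.3% C.

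Within the 42, length and composition tracked the difference between arrays only weakly. Pearson's r with the scaled log2 difference was -0.14 for length, 0.18 for the share of C and 0.05 for G plus C, over miRNAs that share the arrays and probe design. The 16 higher members had a median of 43.3% C and the 24 within the thresholds 45.2%. The stretch CACCAC, chosen after the values were seen, was in the longest probes of 5 detected miRNAs. These were the members miR-1306-3p, miR-5099 and miR-5622-3p, and, numbered above the range, miR-7018-5p and miR-7044-5p. It was in 19 of 1881 longest probes in all (1.01%).

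RefSeq placed 30 of the 35 matched miRNAs within the span of another gene on either strand, 26 of them protein coding. A pair, miR-3069-3p and miR-5121, lay within genes of small RNAs that guide RNA modification, Scarna13 and Snord33, and both were picked by position after values were seen. miR-3069-3p was detected at week-3 only, with 20.9 (SE 0.92) at week-3 and 15.4 (SE 1.19) at week-0, and miR-5121 had 54.9 (SE 1.25) at week-3 and 40.1 (SE 1.58) at week-0. Together with miR-1187, miR-1895, miR-1904, miR-2861, miR-3072-5p, miR-3082-5p, miR-3535 and miR-5128, these were the 10 members not named by rule. The 10 had log2 differences of 0.12 to 0.61 and signals of 19.2 to 114 at week-3 and 15.4 to 105 at week-0, and 1 of them, miR-3069-3p, was past 1.5-fold after scaling.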

How the data were processed

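RNA of pooled BM LSKs was labelled with Cy3 and hybridised by the authors to Agilent mouse miRNA arrays, 2 arrays on 1 slide. Per the file headers, scans were extracted with Feature Extraction 10.7.1.1. In the deposited scanner files are intensity values per spot, background-subtracted and not normalized between arrays, with a detection flag per miRNA. The authors also deposited log2 signals that they quantile normalized with AgiMicroRna, which were used as an alternative only.

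Here spots marked as outliers were left out, spot signals were averaged per probe and summed per miRNA, and the sums were quantile scaled over 1881 miRNAs, floored at 0.5 and log2 transformed (Python 3.11.15, pandas 2.3.3, numpy 2.4.6). "Scaled" means these values and "unscaled" the sums. Thresholds were 1.5 and 0.67. Errors are SE over spots of the unscaled signals, also where they stand beside a scaled log2 difference, and leave out the scaling. The code for the scaling and the log2 differences was run on simulated arrays, both drawn from the week-0 probe means, with as many miRNAs raised as lowered. Those arrays differ in nothing else, so the run cannot show how the scaling acts on the real arrays. The offset summary used limma 3.58.1 in R 4.3.3. The number of arrays limits the precision, and no test was made.

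Groups came from the labels. The members and lists were chosen with earlier results of these data known. Named miRNAs were miR-3963, the 8 brightest members, the 8 highest and 8 lowest of those on both arrays, all at or below 0.67-fold, the 5 brightest detected on each array only, and their arms or numbered relatives. Sequences are from RefSeq (GRCm38.p6). Scaling, spot summary, probe summary, background, floor and filter were varied.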

Additional observations from a re-analysis of the deposited data

How the results depend on the processing

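With a single array per group no replicate could be left out. No paired analysis was possible because each group holds 1 array. Among the 32 named miRNAs, 217 of 320 values under other settings lay within 1 SD over spots of the scaled value and 103 did not. A floor of 1 in place of 0.5, among these settings, lies below every member's scaled signal and so could not move any value. The SD comes from the unscaled signals and is wide for dim miRNAs, at 1.58 for miR-1306-3p, so that lying within it says little for them. Under the scanner's total per miRNA, miR-2137 and miR-3968, both higher after scaling, changed sign to -0.54 and -4.25, and miR-1839-3p and miR-5128, within the thresholds after scaling, became lower, with -1.01 and -2.88; the cause was not tested.

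The count of higher members was 5 with the offset of 50, which draws dim ratios toward 1 by construction (5.16% of the 213 detected), 9 over those detected on both arrays (19% of the 158) and 37 over all 348 of the range (10.6% of all 1881). The count of lower members was 0 with the offset (4.69% of the 213), 7 with the scanner's total (31.9%), 1 in the authors' table (24.9%), 1 over those on both arrays (26.6% of the 158) and 28 over the 348 (12.4% of the 1881). The median log2 difference was 0.14 with the offset and 0.00 over the 348. In the other settings the higher count ran from 12, without scaling, to 22, scaled to the 75th percentile of miRNAs on both arrays. Over the 213 detected miRNAs, the higher count was 43 in the first of these settings and 66 in the last.

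The members' share of signal was 29.5% at week-3 and 27.5% at week-0 with the brightest probe of each miRNA, 25.96% at week-3 and 24.3% at week-0 with the offset, 27.4% at week-3 and 26.1% at week-0 in the authors' table, and 18.9% at week-3 and 16.1% at week-0 without miR-3963. The shares with the offset and in the authors' table come from values normalized between the arrays, the former with the offset still in each. They are thus not the same measure as the shares of unscaled signal. The members' share of unscaled signal was 26.8% at week-0 over miRNAs on both arrays. With the scanner's total it was 32.01% at week-3 and 34.6% at week-0, which turns the order of the arrays; the cause was not tested.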
